A study of Mus musculus with 15 samples.

Results

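The 10 genes described here, Tfrc, Slc11a2, Slc40a1, Fth1, Ftl1, Ireb2, Aco1, Alas1, Fech and Hmox1, encode proteins that take up, export, store and sense iron and that make and break down heme. They were chosen by name for these roles from the 18804 genes of the deposited count table, and all 10 passed the filter on low counts that left 14293 genes to test. RNA was sequenced from cultured white adipocytes, differentiated from mesenchymal stem cells of C57BL/6J mice, under 1 of 3 schedules: 0 days, 1 day or 12 days in the cool, at 31°C. Each group has 5 libraries, which makes 15 in all. Every culture was collected on day 16 after differentiation began. Day 0 cultures stayed at 37°C throughout, day 1 cultures went to 31°C on day 15, and day 12 cultures did so on day 4, so that most of its maturation took place in the cool. The precursors came from mouse ears, per the study's methods. No allele or drug distinguishes the groups, and the labels leave unsaid if replicate libraries had separate animals or dishes as their source, so p-values measure the spread between these libraries, which may be technical.

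Cells take up iron bound to transferrin through the transferrin receptor, move it across membranes with metal transporters, store the excess in a shell of ferritin heavy and light chains and release it through ferroportin. When iron is scarce, the iron regulatory proteins IRP1 and IRP2 bind a hairpin called the iron-responsive element. Binding in a 5′ untranslated region holds back translation of that mRNA, and binding in the 3′ untranslated region of the transferrin receptor mRNA protects it from decay. Much of this control therefore acts on protein production, which mRNA counts do not measure. Iron enters heme in mitochondria, and heme oxygenase opens the heme ring and frees the iron again.

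The hairpin sequences of the members are shown because they separate the genes by where IRP1 and IRP2 bind. The transcripts of GENCODE M21 (build GRCm38, the same assembly as mm10) were searched for a 27-base window with the loop CAGTGN, 5 base pairs below it, a C beneath those on the 5′ side, and at least 4 of 5 further pairs. Capitals mark the loop, each sequence is written 5′ to 3′ as the mRNA strand with T for U, and coordinates are those of the same build. Tfrc held 4 such windows in its 3′ untranslated region:
Tfrc element 1, chr16:32631220-32631246, plus strand: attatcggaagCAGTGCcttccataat
Tfrc element 2, chr16:32631599-32631625, plus strand: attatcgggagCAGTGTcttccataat
Tfrc element 3, chr16:32631664-32631690, plus strand: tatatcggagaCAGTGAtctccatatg
Tfrc element 4, chr16:32631711-32631737, plus strand: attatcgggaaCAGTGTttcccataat
The ferritin chains and ferroportin each held 1 window in the 5′ untranslated region:
Fth1 element 1, chr19:9982733-9982759, plus strand: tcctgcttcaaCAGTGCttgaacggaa
Ftl1 element 1, chr7:45459780-45459806, minus strand: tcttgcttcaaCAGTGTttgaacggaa
Slc40a1 element 1, chr1:45925466-45925492, minus strand: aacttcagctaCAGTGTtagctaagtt
The same letters occurred in the 5′ untranslated region of 6 of 20873 genes (0.0287%) and in the 3′ untranslated region of 10 of 20981 genes (0.0477%). A match is a description of letters, and a member without one, such as Slc11a2, may carry a hairpin that this search does not describe.

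Day 0 libraries held 92387376 to 133270973 counts, day 1 libraries 74430465 to 105322757 and day 12 libraries 64648178 to 91338649, so the day 12 libraries were all shallower than those of day 0. Levels are given in CPM, the standard count scaled to library size, after TMM scaling, which adjusts library sizes for differences in composition. The 8 adipocyte markers were all tested and summed to 4209 to 4826 CPM at day 0, 5166 to 5730.2 CPM at day 1 and 4442 to 4991 CPM at day 12. Of 10 erythroid markers, from cells that make most of the body's heme, 5 were among the counted genes. These 5 summed to at most 0.388 CPM in any library. The globin genes Hba-a1, Hba-a2, Hbb-b1, Hbb-b2 and Hbb-bt were not among the counted genes under these names and are not in the sum. The erythroid enzyme Alas2 had at most 6 counts and the hormone hepcidin (Hamp) at most 2 counts in a library, and neither was tested. In bulk RNA, fewer cells of a type and less RNA per cell cannot be told apart.

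The first comparison asked how adipocytes differ after 1 day in the cool. The transferrin receptor Tfrc and heme oxygenase 1, Hmox1, rose to about double their level at 37°C, and ferroportin, Slc40a1, the exporter, fell. A gene was called at an adjusted p under 0.05 and a fold over 1.5 in edgeR's quasi-likelihood test, and so 2 members were called higher, where 7.71% of all genes tested were, and 1 lower, where 13.4% were (21.1% in either direction). Without the fold limit 7 members lay higher and 2 lower, against 35.3% and 36.2% of all genes. The median log2 fold change over the 10 was 0.34, beside -0.009 over all genes tested. The values of day 1 and day 0 did not overlap for 9 members, a state that 57.4% of all genes shared.

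The second comparison asked how adipocytes matured at 31°C for 12 days differ from those kept at 37°C. Both ferritin chains, Fth1 and Ftl1, and Hmox1 fell, and Alas1, the first and rate-limiting enzyme of heme synthesis in most cells, rose. At day 12 against day 0, 1 member was called higher, where 13% of all genes tested were, and 3 lower, where 16.2% were (29.2% in either direction). Without the fold limit 5 members lay higher and 5 lower, against 39.2% and 37.4% of all genes. The median over the members was -0.07, beside 0.012 over all genes, and 9 members had no overlap between the groups, as did 64.6% of all genes. Both comparisons use the same day 0 libraries. Scaled by total counts in place of TMM, the median of all genes at day 12 against day 0 moved from 0.012 to 0.205, and then none of the 3 decreases reached the fold limit (Fth1 -0.58, Ftl1 -0.48, Hmox1 -0.48), although each kept its sign.

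Between the cool groups themselves, Tfrc, Fth1 and Hmox1 were lower at day 12 than at day 1. This made 3 members called lower, where 8.53% of all genes tested were, and 0 called higher, where 10.6% were (19.1% in either direction). On adjusted p alone edgeR placed 2 members higher and 7 lower, against 34.3% and 32.8% of all genes, and DESeq2 with the fold limit likewise called 0 higher and 3 lower. The median was -0.31, beside 0.009 over all genes, and 8 members did not overlap, as 52.5% of all genes did not.

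**Figure D1:**
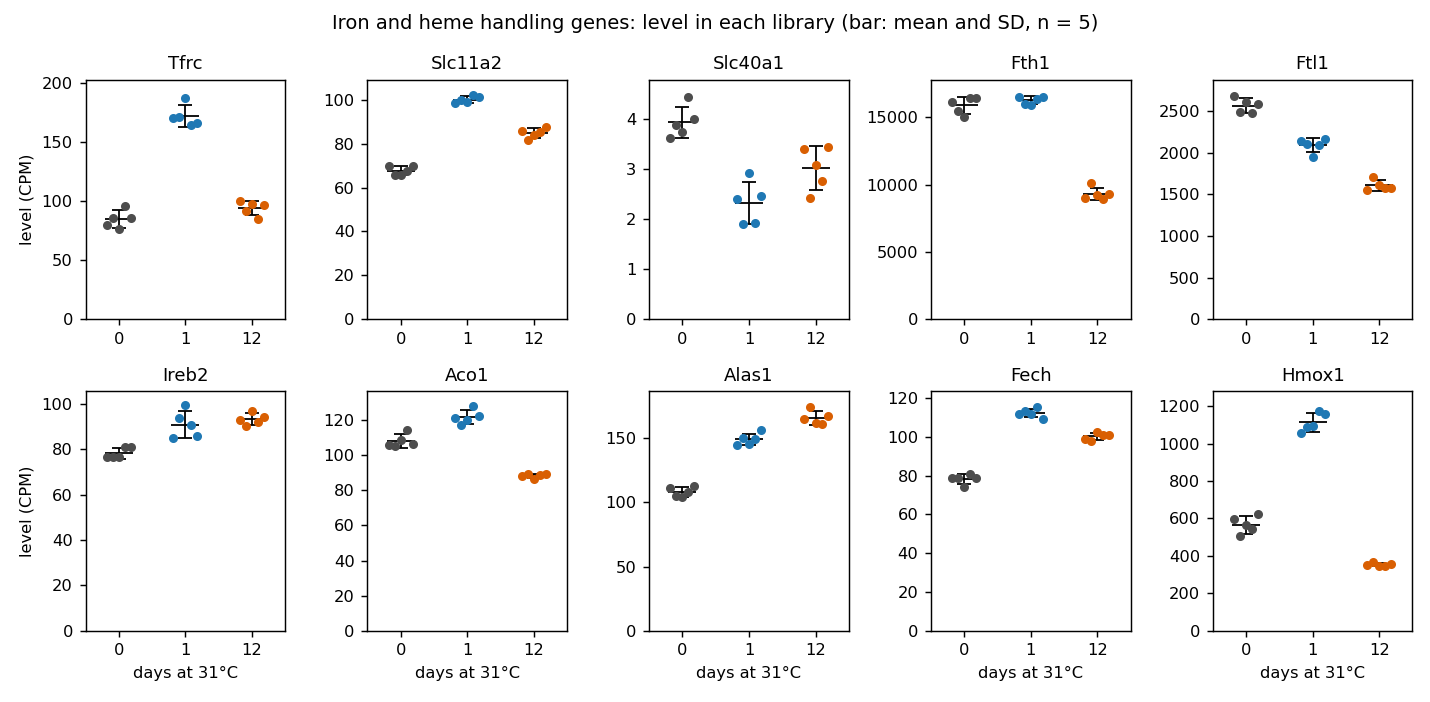
Level of each gene in CPM (vertical axes, each from 0) in the 5 libraries of each group, by days at 31°C; points are libraries and bars the mean and SD. Tfrc and Hmox1 stand highest at day 1, with means of 172 and 1114 CPM, whereas Fth1 and Ftl1 stand lowest at day 12, with means of 9297 and 1605 CPM.

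Tfrc (chr16:32608920-32632794, plus strand) encodes the receptor that brings transferrin-bound iron into cells. Its levels were 79.9, 85.6, 76.5, 95.8 and 85.3 CPM at day 0, 170.0, 171, 187, 164 and 166 CPM at day 1, and 100.4, 91.9, 97.1, 84.5 and 96.7 CPM at day 12. Every day 1 library lay above every other library, and the day 0 and day 12 libraries overlapped. The change at day 1 was 2.03-fold, a log2 fold change of 1.02 ± 0.051 (SE; edgeR quasi-likelihood test, Benjamini-Hochberg adjusted p = 8.66e-15). At day 12 against day 0 the log2 difference was 0.15 ± 0.051, with an adjusted p of 0.00803 and a fold of 1.11, under the limit. Day 12 was 1.82-fold lower than day 1 (-0.87 ± 0.051, adjusted p = 2.25e-13).

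Slc11a2 (chr15:100387898-100425072, minus strand) encodes DMT1, which carries ferrous iron out of endosomes after transferrin uptake. Its level was 67.6 ± 2.05 CPM (SD, n = 5) at day 0, 100.1 ± 1.57 CPM at day 1 and 85.0 ± 2.22 CPM at day 12, with no overlap between any pair of groups. The log2 differences from day 0 were 0.57 ± 0.028 at day 1 and 0.33 ± 0.028 at day 12. The first, with an adjusted p of 6.64e-15 in edgeR's test, was 1.48-fold and just under the limit, and it passed when libraries were scaled by total counts (0.587).

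Slc40a1 (chr1:45908068-45926523, minus strand) encodes ferroportin, the known exporter of iron from cells. It was the scarcest member per exon length, with at most 456 counts in a library. Its levels were 3.62, 3.88, 3.73, 4.42 and 3.99 CPM at day 0, 2.41, 1.90, 2.91, 1.92 and 2.46 CPM at day 1, and 3.39, 2.41, 3.08, 2.77 and 3.44 CPM at day 12. The day 0 libraries lay above all others, and those of day 1 and day 12 overlapped. The decrease at day 1 was 1.68-fold (-0.75 ± 0.12, edgeR adjusted p = 4.74e-06). It was not called in a test against a fold of 1.5. At day 12 the log2 difference from day 0 was -0.37 ± 0.12 (edgeR adjusted p = 0.00545), short of the fold limit.

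Fth1 (chr19:9980598-9985098, plus strand) encodes the ferritin heavy chain, which oxidizes iron for storage, and was the most abundant member per exon length. Its levels were 16132, 15488, 15024, 16431 and 16429.6 CPM at day 0, 16521, 15992, 15879, 16357 and 16531 CPM at day 1, and 8972, 10105, 9225, 8908 and 9275 CPM at day 12. The day 0 and day 1 libraries overlapped, and all day 12 libraries lay below them. The log2 difference at day 1 was 0.03 ± 0.033 (edgeR adjusted p = 0.391), and its sign turned with the scaling, to -0.07 against reference genes. At day 12 Fth1 fell by 0.77 ± 0.033 on the log2 scale, or 41.5% (edgeR adjusted p = 2.27e-16), and it was 1.75-fold lower than at day 1.

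Ftl1 (chr7:45457944-45459884, minus strand) encodes the ferritin light chain, which supports the iron core. Its levels were 2681, 2483, 2603, 2475 and 2581 CPM at day 0, 2142, 2104, 1953, 2094 and 2159 CPM at day 1, and 1551, 1708, 1605, 1581 and 1579 CPM at day 12. The groups descended in that order without overlap. The log2 fold change was -0.29 ± 0.032 at day 1 (edgeR adjusted p = 1.25e-08, under the fold limit) and -0.68 ± 0.032 at day 12 (adjusted p = 1.76e-15), when the gene fell by 37.4%. Of the exon bases of Ftl1, 34.6% overlap other annotated genes (Gm22133 and Gm10252). Genes and pseudogenes named after both ferritin chains lie elsewhere in the genome, among them Ftl1-ps1, Ftl1-ps2, Ftl2-ps, Fth-ps2 and Fth-ps3. How similar their sequences are was not tested. Both ferritin levels are uncertain to the extent that reads were shared or discarded.

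Ireb2 (chr9:54863789-54912530, plus strand) encodes IRP2, and Aco1 (chr4:40143081-40198338, plus strand) encodes IRP1, which acts as a cytosolic aconitase when it holds an iron-sulfur cluster. No change of either passed the fold limit. Ireb2 was at 78.3 ± 2.47, 90.9 ± 6.00 and 93.3 ± 2.51 CPM (SD, n = 5) at days 0, 1 and 12, and both cool groups lay wholly above day 0. Aco1 was at 108 ± 3.78, 122 ± 3.94 and 88.3 ± 1.18 CPM, with no overlap between any pair of groups. Its log2 differences from day 0 were 0.17 ± 0.028 at day 1 (edgeR adjusted p = 8.85e-06) and -0.29 ± 0.029 at day 12 (adjusted p = 1.94e-09).

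Alas1 (chr9:106233455-106248654, minus strand) makes the first heme precursor, and Fech (ferrochelatase) inserts iron into protoporphyrin at the last step. Alas1 levels were 112, 105, 104, 108 and 113 CPM at day 0, 144, 150.0, 146, 149 and 156 CPM at day 1, and 165, 174, 162, 162 and 168 CPM at day 12. The groups ascended without overlap. The log2 fold change was 0.46 ± 0.030 at day 1 (edgeR adjusted p = 1.63e-12, under the fold limit) and 0.62 ± 0.030 at day 12 (adjusted p = 3.7e-15), a 1.53-fold rise close to the limit that was not called in a test against a fold of 1.5. Fech ranged from 73.9 to 81.0 CPM at day 0, from 109 to 115 CPM at day 1 and from 97.6 to 103 CPM at day 12, 1.43-fold and 1.28-fold above day 0 at days 1 and 12, and was not called. Fech thus had its highest mean at day 1 and Alas1 at day 12.

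Hmox1 (chr8:75093621-75100589, plus strand) encodes the inducible enzyme that opens heme. Its levels were 597, 504, 565, 542 and 626 CPM at day 0, 1056, 1087, 1093, 1177 and 1157 CPM at day 1, and 352, 368, 347, 348 and 359 CPM at day 12. The groups were fully separate, with day 1 above and day 12 below the 37°C libraries. The rise at day 1 was 1.97-fold (0.97 ± 0.043, edgeR adjusted p = 9.55e-16), and at day 12 Hmox1 fell by 0.68 ± 0.043 on the log2 scale (adjusted p = 5.14e-13). Day 12 was 3.14-fold lower than day 1 (-1.65 ± 0.044, adjusted p = 6.79e-20), the largest of the members' differences in these 3 comparisons.

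**Figure D2:**
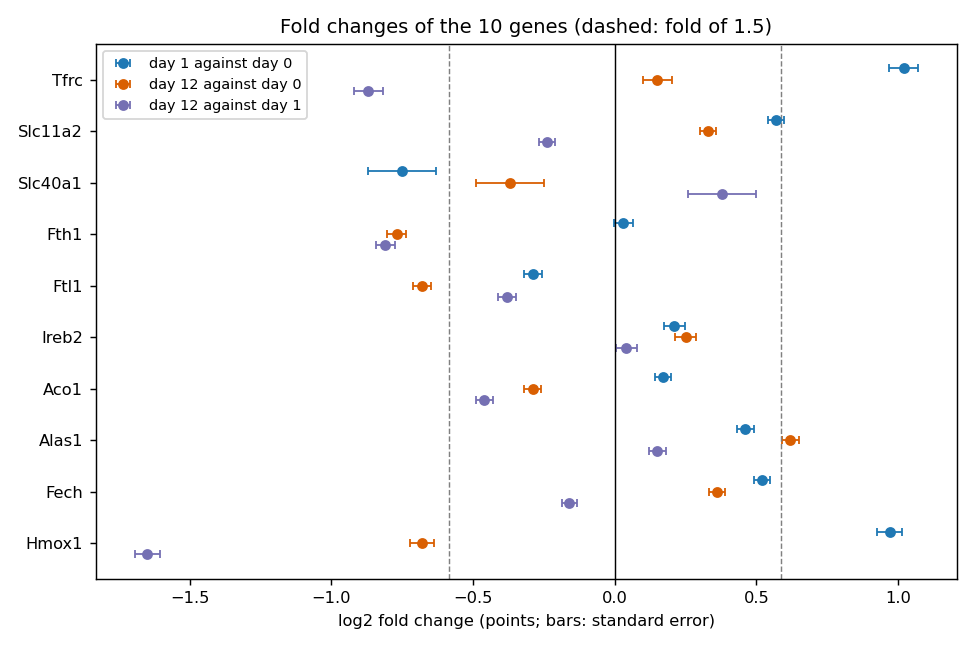
Log2 fold change of each gene (horizontal axis) in the 3 comparisons; points are estimates, bars their standard errors and dashed lines a fold of 1.5. Hmox1 lies at 0.97 for day 1 and at -0.68 for day 12 against day 0, and Tfrc at 1.02 and 0.15.

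The library names fall into 2 number series, which no source states to be a batch: 11 libraries belong to the larger and 4 to the smaller. In the 11 alone the log2 fold changes at day 1 were 1.06 for Tfrc, 0.97 for Hmox1 and -0.69 for Slc40a1, and at day 12 -0.76 for Fth1, -0.67 for Ftl1, -0.64 for Hmox1 and 0.63 for Alas1. All 7 of these calls were also made there. The smaller series holds too few libraries for values of its own.

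Per kilobase of annotated exon, Fth1 stood highest at day 0 with a mean of 10206 CPM per kb, followed by Ftl1 with 2649.8 and Hmox1 with 361. The other genes were far lower, from 28.2 CPM per kb for Aco1 and 27.3 for Alas1 down to 10.9 for Fech and 1.17 for Slc40a1. Fth1, Ftl1 and Hmox1 kept the first places in this order of means in all 3 groups, and Slc40a1 the last. Tfrc moved from 16.3 CPM per kb at day 0 to 33.1 at day 1 and 18.1 at day 12.

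**Figure D3:**
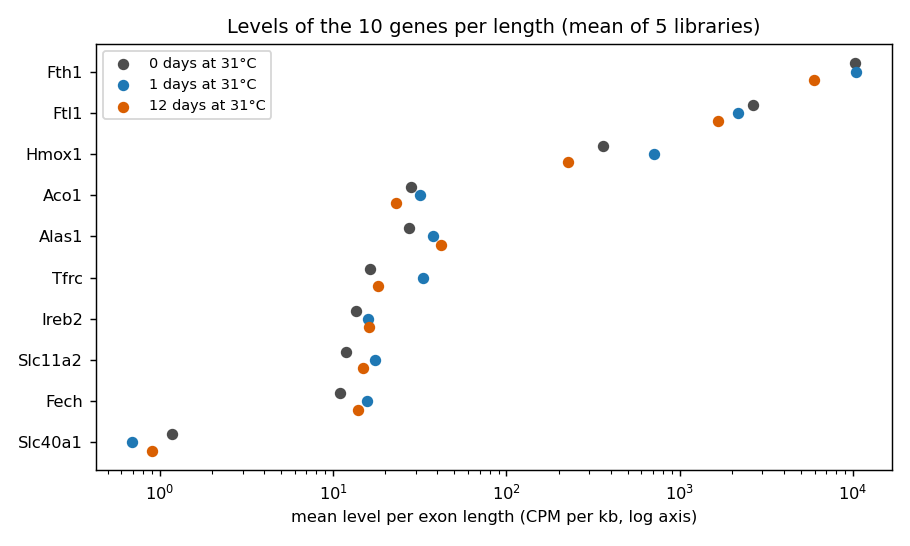
Mean level per exon length in CPM per kb (horizontal log axis) for each gene and group, each point a mean of 5 libraries. Fth1 lies near 10206 CPM per kb at day 0 and at 5967 at day 12, and Slc40a1 lies near 1.

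Ratios of counts within a library do not depend on how libraries are scaled to one another, and they are given as descriptions without a test. The ratio of Fth1 to Ftl1 spanned 5.77 to 6.64 in the day 0 libraries, 7.6 to 8.13 in those of day 1 and 5.64 to 5.92 in those of day 12. The ratio was therefore highest at day 1, where Ftl1 was lower and Fth1 overlapped its day 0 range. The ratio of Tfrc to Fth1 had medians of 0.00519, 0.0103 and 0.0104 for 0, 1 and 12 days in the cool. Both cool groups were thus near double the 37°C ratio, the first with a higher Tfrc and the second with a lower Fth1. The ratio of Aco1 to Ireb2 counts spanned 1.31 to 1.42 without cooling, 1.21 to 1.43 after 1 day and 0.89 to 0.985 after 12 days. Per kilobase of exon the mean of Aco1 stayed above that of Ireb2 in every group, at 23.0 against 16.2 CPM per kb in the day 12 libraries. Hmox1 to Alas1 had medians of 5.35, 7.4 and 2.14 in the same order, with no overlap between groups.

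**Figure D4:**
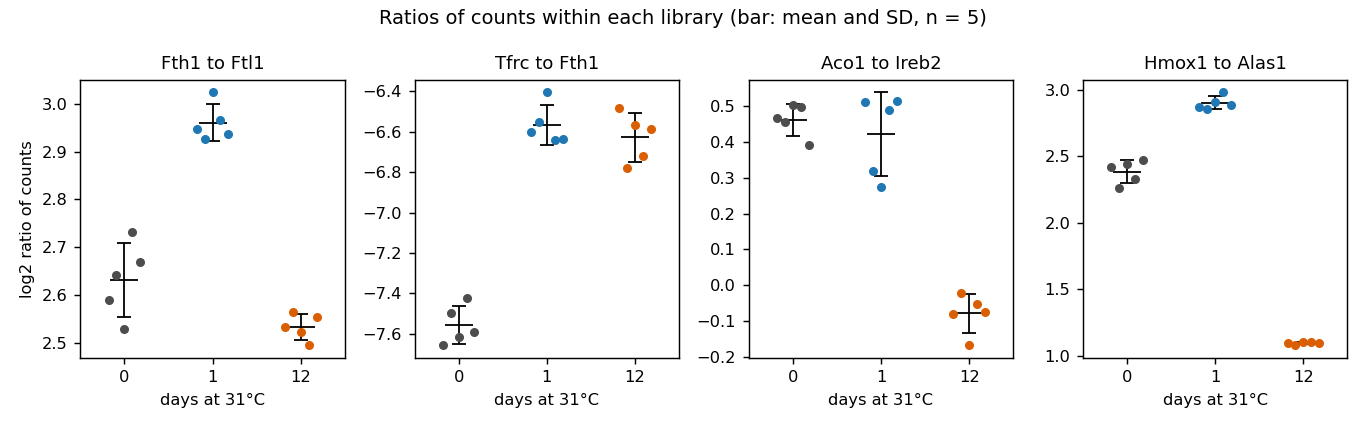
Log2 ratio of the counts of paired genes within each library (vertical axes, which do not start at 0), by days at 31°C; points are libraries and bars the mean and SD. The log2 ratio of Tfrc to Fth1 has a mean of -7.56 at day 0, -6.57 at day 1 and -6.63 at day 12.

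The shares of all genes tested that were called, 7.71% higher and 13.4% lower after 1 day and 13% higher and 16.2% lower after 12 days, are the background for the counts of each list of related genes. Of the other genes of iron uptake, transport and export, after 1 day 1 of 15 was called higher and 2 were called lower (median -0.16), and after 12 days 2 were higher and 7 lower (median -0.61, beside 0.012 over all genes). Of those 7, Tfr2, Ltf and Cybrd1 were scarce, with day 0 means of 1.37, 0.290 and 0.507 CPM. Trf, transferrin itself, was at 28266 ± 1609 CPM at day 0 and 27753 ± 611 CPM at day 1, and fell to 9306 ± 189.7 CPM at day 12 (log2 -1.6 ± 0.033, edgeR adjusted p = 2.18e-22), although 63.5% of its exon bases overlap the annotated Gm20425. The endosomal ferrireductase Steap3 fell by 0.81, the ferroxidase ceruloplasmin (Cp) by 0.61 and the siderophore-binding lipocalin Lcn2 by 1.0 on the log2 scale at day 12. The decrease of Cp did not pass the fold limit with total counts or reference genes. The metal transporter Slc39a8 rose on both days (1.13 and 1.57), and Steap1 rose at day 12 (0.78). Slc39a14 (-0.23 and -0.21) and Steap4 (-0.27 and 0.46) were not called.

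Of 12 genes of iron storage and regulation, 2 were called higher and 1 lower after 1 day (median -0.05), where 21.1% of all genes were called in either direction. After 12 days 1 was higher and 2 were lower (median -0.14), where 29.2% of all genes were called. Hfe, which binds the transferrin receptor, rose at day 1 (0.60 ± 0.033, edgeR adjusted p = 6.61e-14) to just past the fold limit, but it was not called when scaled to reference genes (0.50), under the 10 CPM filter (0.56), in the larger number series (0.58), without day 0 replicate 2 (0.58) or in the test against a fold of 1.5. Epas1, the hypoxia-inducible factor HIF-2α, fell at day 12 (-0.77), but with total counts it stood at -0.58 and was not called. Not called on either day were the ferritin-degradation receptor Ncoa4 (-0.21 and 0.08), the IRP2-degrading Fbxl5 (-0.32 and -0.19), the heme-sensing repressor Bach1 (-0.05 and -0.46) and Nfe2l2, which encodes NRF2 (-0.38 and -0.45).

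In heme synthesis the steps between Alas1 and Fech did not move together. After 1 day, 1 of 12 other genes was called higher and 2 were lower (median 0.29), and after 12 days none was higher and 2 were lower (median 0.19), beside 21.1% and 29.2% of all genes called in either direction. Cpox, an oxidase of the late pathway, fell from 44.5 ± 1.01 CPM (SD, n = 5) to 27.5 ± 0.633 CPM after 1 day and to 17.1 ± 0.846 CPM after 12. These were log2 fold changes of -0.69 and -1.38. Uros, which closes the porphyrin ring, fell by 1.15 and 1.09. Alad (0.36 and 0.19) and Ppox (0.39 and 0.11) were not called. Abcb6 was called higher at day 1 (0.62), but when scaled to reference genes it stood at 0.52 and was not called. Abcb6 shares 55.2% and Ppox 17.5% of exon bases with other annotated genes, so their counts are uncertain.

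Among genes of heme breakdown, binding and transport, 4 of 15 were called higher and none lower after 1 day (median 0.26), and 5 were higher and 2 lower after 12 days (median 0.13). Of all genes, 7.71% were higher and 13.4% lower after 1 day, and 13% and 16.2% after 12. The biliverdin reductase Blvrb, which acts after heme oxygenase, rose at day 1 (0.93) and stood at 0.19 at day 12. Flvcr1, the heme exporter listed as Mfsd7b, rose on both days (1.41 and 1.39), with 15.6% of its exon bases shared. Hemopexin, Hpx, rose at day 12 from 64.0 ± 5.35 to 229 ± 17.3 CPM (1.84), while haptoglobin, Hp, fell (-0.95). Hebp1 fell at day 12 (-0.59), but without day 0 replicate 1 (-0.56) or without day 12 replicate 4 (-0.58) it was not called, nor with total counts (-0.40). The constitutive heme oxygenase Hmox2 was at 0.30 and 0.16, not called, with 40.2% of its exon bases shared.

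Of 30 genes of mitochondrial iron and iron-sulfur assembly, 2 were called higher and 2 lower after 1 day (median 0.14), and 3 higher and 2 lower after 12 days (median 0.05), beside 21.1% and 29.2% of all genes called in either direction. Ciapin1 rose on both days (0.88 and 0.80), and the glutaredoxin Glrx5 rose at day 1 (0.69). The co-chaperone Hscb fell at day 12 (-0.63), and Fam96b fell on both days (-0.60 and -0.75). Without day 0 replicate 5 or day 1 replicate 3 the day 1 value of Fam96b was -0.58 or -0.56 and was not called. Scaled by total counts, Hscb (-0.44) and Fam96b (-0.56) were not called at day 12 either. The mitochondrial iron importer Slc25a37 (-0.28 and -0.30), the scaffold Iscu (0.47 and 0.34) and Cisd1 (0.43 and 0.17) were not called.

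Hmox1 is also a known target of NRF2, the factor that induces antioxidant genes. Of 10 other targets, 7 were called higher and none lower after 1 day (median 0.88), and 1 higher and 1 lower after 12 days (median 0.01). Of all genes, 7.71% were called higher after 1 day, and 13% higher and 16.2% lower after 12. The quinone reductase Nqo1 was at 176 ± 12.0, 500.3 ± 19.9 and 176 ± 14.8 CPM at days 0, 1 and 12 (SD, n = 5), and sulfiredoxin, Srxn1, at 133 ± 9.65, 345 ± 23.9 and 129.6 ± 4.44 CPM. Both rose at day 1 and were not called at day 12. The cystine transporter Slc7a11 rose on both days (1.17 and 0.77), and Osgin1 fell at day 12 (-0.97).

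**Figure D5:**
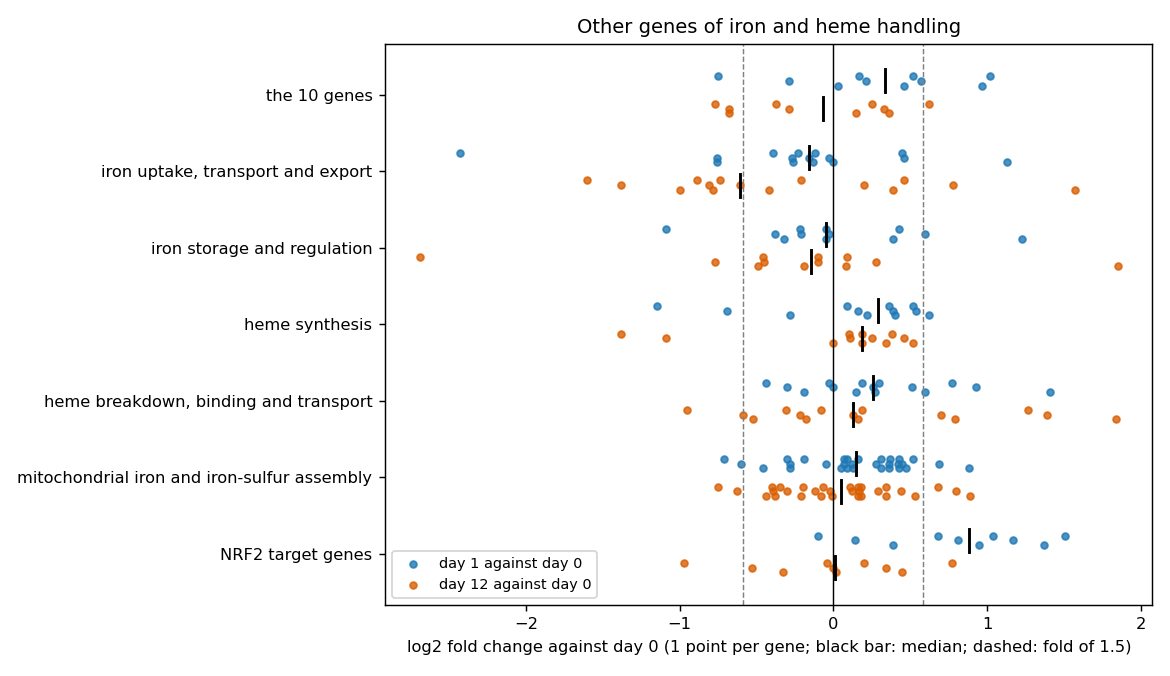
Log2 fold change against day 0 (horizontal axis) of every tested gene of the 10 and of the 6 lists, 1 point per gene; black bars are medians and dashed lines a fold of 1.5. The NRF2 targets have medians of 0.88 after 1 day and 0.01 after 12.

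Markers of other cells and states differed alongside these values. Macrophage markers summed to 26.6 to 33.9 CPM at day 0. Their sums were 42.4 to 48.6 CPM at day 1 and 30.1 to 34.5 CPM at day 12. Of these markers, Ptprc had no more than 7 counts and Itgam no more than 16 counts in any library. Itgam shares 68.7% of its exon bases with another annotated gene, so its count is uncertain. At day 1 Csf1r (2.03) and Cd14 (0.71) were called higher and Emr1 (-1.16) lower. At day 12 Csf1r (1.47) and Lyz2 (1.07) were called higher. Of 8 adipocyte markers, Cidec (-2.62) and Lep were called lower and Fabp4 higher at day 1, where 13.4% of all genes were lower and 7.71% higher. At day 12, 4 of the 8 (Adipoq, Cidec, Lep and Pparg) were called lower and 1 higher. Of all genes, 16.2% were called lower and 13% higher at day 12. Proliferation markers summed to 121 to 139 CPM at day 0, 146 to 161 CPM at day 1 and 257 to 297 CPM at day 12, and 7 of 9 were called higher at day 12. Progenitor markers summed to 1339.7 to 1397 CPM at day 0, 1399 to 1476 CPM at day 1 and 1132 to 1165 CPM at day 12. Of them, Ly6a (-1.42) and Dlk1 (-0.9) were called lower at day 12. Endothelial markers summed to at most 1.53 CPM in any library, and of them Kdr (1.5) and Pecam1 (1.31) were called higher at day 12. The part of all these markers in the results was not tested.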

How the data were processed

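Reads were mapped by the authors to mm10 using TopHat2 2.0.13 and Bowtie2 2.2.1 and counted reads per gene with HTSeq, per the submitters' processing notes and the study's methods, and the deposited table holds raw counts. The strand setting of the counting is not given in the sources used here. Deposited rlog values and the authors' DESeq2 comparison tables (fold changes and p-values) were not used.

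Genes passing filterByExpr (minimum count 10) were fitted over all 15 libraries with TMM scaling and the quasi-likelihood test of edgeR 4.0.16 (limma 3.58.1, R 4.3.3). P-values were adjusted by the Benjamini-Hochberg method over 14293 genes, and calls needed an adjusted p under 0.05 and a fold over 1.5. The standard error is the log2 fold change divided by the root of its F statistic. The scripts were tested on simulated data. DESeq2 1.42.0, other scalings, filters, fold limits, covariates and left-out libraries were alternatives. No 2 libraries of a group agreed within sampling noise (chi-square per degree of freedom 5.69 to 24.5 over 30 pairs). Gene positions, exon overlaps and transcripts are from GENCODE M21.

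The members and lists were chosen with earlier results of these data known. Named genes are the members, fixed genes of the same pathways, and up to 2 called increases and 2 called decreases per list and comparison with day 0, at a mean of at least 1 CPM. Iron uptake, storage, heme synthesis, heme breakdown, mitochondrial iron and NRF2 target lists, and 6 marker lists, were described by counts and medians. Some genes that the naming rule covers are not reported here.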

Additional observations from a re-analysis of the deposited data

Results flagged for a closer look

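Within the day 1 group, Tfrc in replicate 3 stood apart at 187 CPM, with the nearest other library at 171 CPM. It was the 1 value to stand apart in this way among 30 checks (each member in each group), where chance gives about 1 in 20.

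The change from day 0 differed between 1 and 12 days at 31°C for 3 members past the fold limit of 1.5, by the edgeR test of day 12 against day 1. With the fold limit that test called 19.1% of all genes in either direction. On adjusted p alone it placed 2 members higher and 7 lower, against 34.3% and 32.8% of all genes. The difference was -0.87 for Tfrc, -0.81 for Fth1 and -1.65 for Hmox1 on the log2 scale. Every day 12 library lay below every day 1 library for each of these genes. Of all genes, 52.5% had no overlap between these groups, in either direction.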

How the results depend on the processing

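Values are log2 fold changes unless called counts. Scaling by total counts left 0 members lower at day 12 against day 0 (3 in the reported fit), and it turned the sign of Steap3 at day 1 (0.02), of Fbxl5 (0.007) and Srxn1 (0.15) at day 12, and, at day 12 against day 1, of Fech (0.008), Nfe2l2 (0.11), Alad (0.009), Hmox2 (0.032), Mfsd7b (0.15), Slc25a37 (0.16), Iscu (0.046), Abcb6 (0.017), Ciapin1 (0.10) and Fam96b (0.026). Of all calls at day 12 against day 0, 55.6% were decreases with TMM, 35.9% with total counts and 49.6% with reference genes; at day 1 against day 0 the shares were 63.5%, 60.8% and 75.8%, and at day 12 against day 1 44.7%, 27.3% and 29%. Reference genes turned Fth1 at day 1 (-0.065), Srxn1 at day 12 (0.015) and, at day 12 against day 1, Nfe2l2 (0.088), Hmox2 (0.013), Mfsd7b (0.13), Slc25a37 (0.14), Iscu (0.027), Ciapin1 (0.079) and Fam96b (0.008). A mean of at least 10 CPM removed Slc40a1, leaving 0 members lower at day 1, gave 18 pathway genes called at day 12 against day 0 (28 reported), and turned Fth1 at day 1 (-0.013), Nqo1 at day 12 (-0.017), and Mfsd7b (0.005) and Slc25a37 (0.012) at day 12 against day 1. Adjusted p alone called 7 members higher and 2 lower at day 1, 5 and 5 at day 12, and 2 and 7 at day 12 against day 1, with 79, 81 and 75 pathway genes (24, 28 and 20 reported). A test against a fold of 1.5 left 0 members lower at day 1 and 0 higher at day 12. That test also did not call Hfe, Abcb6 and Fam96b at day 1 or Cp, Hebp1 and Hscb at day 12, and reference genes took the call from Hebp1 (-0.54) and Hscb (-0.58) at day 12. Near 0, Steap3 at day 1 turned without a filter (0.001), with the number series as a covariate (0.015) and in a fit of only the 2 groups (0.005); Nqo1 at day 12 turned with median-ratio factors (-0.007), DESeq2 (-0.007) and only the 2 groups (-0.011); and Slc25a37 at day 12 against day 1 turned in the larger series (0.014). Leaving out 1 library in turn gave -0.038 to 0.021 for Steap3 and -0.052 to 0.001 for Trf at day 1, -0.030 to 0.044 for Nqo1 at day 12, and -0.058 to 0.002 for Mfsd7b and -0.055 to 0.030 for Slc25a37 at day 12 against day 1, while no member gained or lost a call. Where no construction shows it, the cause was not tested.

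With the replicate number as a replicate block, 2 members were called higher and 1 lower at day 1, 1 and 3 at day 12, and 0 and 3 at day 12 against day 1, with 24, 28 and 20 pathway genes, as without it. The numbers gave no clear sign of paired libraries. Same-numbered libraries correlated at -0.026 to 0.044 (15 pairs, median 0.019) and others at -0.042 to 0.051 (median -0.002). The labels do not state pairing, and correlations this small cannot settle it. Slc40a1, with at most 456 counts in a library, had the largest standard error of the members, at 0.12 in each comparison. Whether depth sets this was not tested.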

Other observations

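Other genes whose untranslated regions held the letters of the iron-responsive element varied in both directions. With a match in the 5′ untranslated region, Ppp1r1b stood at 0.35 (edgeR adjusted p = 0.0113) at day 1 and -0.46 (adjusted p = 0.00179) at day 12, and was not called. With a match in the 3′ untranslated region, as in Tfrc, 4931428F04Rik fell on both days (-0.73 and -0.61), Slitrk2 fell at day 12 (-0.91), and Glyat rose at day 1 (1.29, edgeR adjusted p = 0.014). Rab11fip5 (0.53 and 0.23), Cant1 (-0.12 and -0.52), Trim23 (0.25 and 0.09), Zbtb44 (0.16 and 0.23) and Fbxl14 (0.10 and 0.19) were not called.

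Some genes of the lists that the naming rule did not reach, chosen here after their values were seen, were called. Of these, Tfr2 and Bmp6 were scarce. The transferrin receptor 2 gene, Tfr2, fell on both days (-0.76 and -0.74) from a mean of 1.37 CPM. Bmp6, a signal for hepcidin, fell on both days (-1.09 and -2.69) from 1.19 CPM. Nubp1, of cytosolic iron-sulfur assembly, rose at day 12 (0.68) from a mean of 16.3 CPM, with 36.9% of its exon bases shared with another gene.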
